A study of Mus musculus with 4 samples.

Results

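The 10 genes described here encode ligands, an inhibitor and receptors of bone morphogenetic protein (BMP) and activin signalling: Bmp2, Bmp4, Bmp6, Gdf10, Inhba, Inhbb, Fst, Acvr2a, Acvr2b and Bmpr2. They were chosen by symbol, and all 10 were found among the 32285 genes of the deposited count matrices. The matrices come from single-cell RNA sequencing of hindlimb muscle of male C57Bl/6J mice. Irradiated limbs (IR) had received 3 fractions of 8.2 Gy of X-rays at 5 weeks of age and were taken 24 hours after the last fraction or 56 days after irradiation. Control limbs (CON) were contralateral, lead-shielded limbs taken at the same times, so they came from mice irradiated in the other limb. How many mice stand behind a pool, and whether an IR and a CON pool hold limbs of the same mice, is not given in the sources used here. Each of the 4 groups was a single library made from 3 pooled limbs and sorted for live nucleated cells. With 1 library per group no difference was tested. Every interval below is a 95% interval that covers counting error only.

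BMPs and activins are secreted dimers of the TGF-beta superfamily. They bring together type I and type II serine/threonine kinase receptors, and the type I receptor then phosphorylates SMAD proteins that move to the nucleus with Smad4. BMP signals pass through Smad1, Smad5 and Smad9 and switch on the Id genes, while activins and myostatin act through Smad2 and Smad3. In muscle, BMP signalling maintains satellite cells and fibre mass, myostatin and activin A limit fibre growth, and follistatin binds and neutralises activins and myostatin. In endothelium, Bmpr2 is the type II receptor whose loss underlies heritable pulmonary arterial hypertension in humans.

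The libraries held 2763 barcodes in IR and 1471 in CON at 24 hours, and 1030 in IR and 1822 in CON at 56 days, with 10121978, 6339993, 4715202 and 8842963 unique molecular identifiers (UMIs) in that order. Filters on genes, UMIs and mitochondrial share kept 6544 of the 7086 barcodes, with library medians of 3057 to 3627 UMIs. Pairs of libraries shared 1 to 3 barcodes. Cells were assigned to 11 classes by marker lists, and myofibre-rich barcodes were set apart first. No marker of another class stood among the 10 leading genes of any class. The gate itself favours that outcome, since it uses the same marker lists, so it is no separate check of the classes. Endothelial-like cells made up 61.1% of IR and 35.7% of CON cells at 24 hours, and 49.2% of IR and 46.1% of CON cells at 56 days. B-like cells were led by genes that include the precursor genes Vpreb3 and Rag1, and neutrophil-like cells by Ngp and Camp. Over all kept cells the p53 target Cdkn1a, a marker of the radiation response, stood at 1833 counts per 1e6 UMIs (CPM) in IR and 166 CPM in CON at 24 hours. At 56 days it stood at 793 CPM in IR and 106 CPM in CON. It was thus the higher in IR at both times over all cells. At 56 days endothelial-like cells had 1431 CPM in IR and 159 CPM in CON, and FAP-like, satellite-like and mural-like cells were also higher in IR. Schwann-like cells had close levels then, at 1102 CPM in IR and 1054 CPM in CON, and B-like cells had 4.07 CPM in IR and 15.3 CPM in CON. A level in CPM is a gene's UMIs scaled to the total UMIs of its class in a library, or of all cells where so stated.

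The ligand genes differed in the classes they were read from: Bmp4, Bmp6 and Inhbb had their largest share of UMIs over all libraries in endothelial-like cells, Bmp2 in mural-like, Gdf10 in FAP-like and Inhba in neutrophil-like cells. These pooled shares depend on how many cells of a class each library held, and the leading class was another one in some libraries for Inhba and Inhbb. FAP-like cells resemble fibro-adipogenic progenitors, and mural-like cells resemble pericytes and smooth muscle. Bmp6, a ligand best known as a regulator of hepcidin in the liver (chr13:38345107-38500302, plus strand, mm10), had 76.8% of its 1897 UMIs in endothelial-like cells. Its level there was 99.2 CPM in IR and 104 CPM in CON cells at 24 hours, and 138 CPM in IR and 148 CPM in CON cells at 56 days. The IR and CON levels lay close together at both times, and both 56-day libraries were above both 24-hour libraries. The IR over CON fold was 0.95 (0.81 to 1.13) at 24 hours and 0.93 (0.80 to 1.09) at 56 days. Schwann-like and satellite-like cells reached median levels over the libraries of 121 and 109.6 CPM, against 121 CPM in endothelial-like cells, and the ranges of these 3 classes overlapped. Bmp6 had 0 UMIs in B-like cells of every library, where the 241 CON cells at 24 hours allow a share of cells with a UMI of up to 1.24%, counted as 3 cells.

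In Schwann-like cells Bmp6 stood at 152 CPM in IR and 103 CPM in CON at 24 hours, and at 138 CPM in IR and 67.2 CPM in CON at 56 days. IR was the higher library at both times, by 1.47-fold (0.90 to 2.53) and 2.06-fold (1.07 to 4.09), on 20 or fewer UMIs in each CON library. Satellite-like cells had 95.3 CPM in IR and 58.6 CPM in CON at 24 hours, and 183 CPM in IR and 124 CPM in CON at 56 days. IR was again the higher library, by 1.63-fold (0.85 to 3.24) and 1.48-fold (0.82 to 2.57), with intervals that contained 1.

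FAP-like cells had 43.3 CPM of Bmp6 in IR and 22.2 CPM in CON at 24 hours, and 50.7 CPM in IR and 17.8 CPM in CON at 56 days. The folds were 1.95 (0.76 to 5.94) and 2.84 (1.20 to 6.82), on 6 to 20 UMIs a library, and the 56-day log2 ratio was -0.0419 without the 5% of cells with most UMIs. In mural-like cells Bmp6 was measured at 56 days, with 12 UMIs in IR and 11 UMIs in CON and a fold of 0.80 (0.32 to 2.00).

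Bmp4, a ligand expressed by satellite cells and needed for dorsoventral patterning in the embryo (chr14:46383520-46390669, minus strand), reached its highest class level in satellite-like cells. It had 203 CPM in IR and 191 CPM in CON satellite-like cells at 24 hours (66 and 49 UMIs), and 250.1 CPM in IR and 78.1 CPM in CON cells at 56 days (26 and 29 UMIs). The CON library at 56 days was thus the low one, and the other 3 lay near each other. The fold was 1.06 (0.72 to 1.57) at 24 hours and 3.20 (1.81 to 5.63) at 56 days, and CON at 56 days was 0.41 times CON at 24 hours (0.25 to 0.66). In cells thinned to 1000 UMIs, 28.0% of 25 IR cells and 6.85% of 73 CON cells held a Bmp4 UMI at 56 days, where the unthinned shares were 59.3% and 30.1%. B-like cells held none in any library, and their median depths at 56 days were 3051.5 UMIs in IR and 3239 UMIs in CON, against 3578 UMIs in IR and 4643 UMIs in CON satellite-like cells. The 3 cells with most UMIs held 34.6% of the IR and 24.1% of the CON UMIs at 56 days. The mitochondrial share of UMIs in satellite-like cells was 3.80% in IR and 5.39% in CON at 56 days, and its part in the result was not tested. All 13 processing alternatives kept IR higher at 56 days, between 2.87-fold and 4.67-fold. The 56-day value rests on 27 IR and 73 CON cells.

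The 250 bases before the Bmp4 start are shown because Bmp4 is a ligand whose 56-day fold stayed on the same side under all 13 alternatives. They are RefSeq sequence of GRCm38.p6, chr14:46390670-46390919 on the minus strand, with GC boxes (GGGCGG or CCGCCC, either strand) in capitals.
Bmp4 promoter: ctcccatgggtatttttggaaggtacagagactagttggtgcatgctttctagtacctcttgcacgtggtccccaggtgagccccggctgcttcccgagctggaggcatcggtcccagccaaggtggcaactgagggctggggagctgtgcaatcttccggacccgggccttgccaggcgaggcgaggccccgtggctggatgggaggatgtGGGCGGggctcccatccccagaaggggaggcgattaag
The window holds 1 GC box, a hexamer found in 32.7% of the 32817 promoter windows of the same length, and 11 CG dinucleotides, where the median window has 6.

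**Figure D1:**
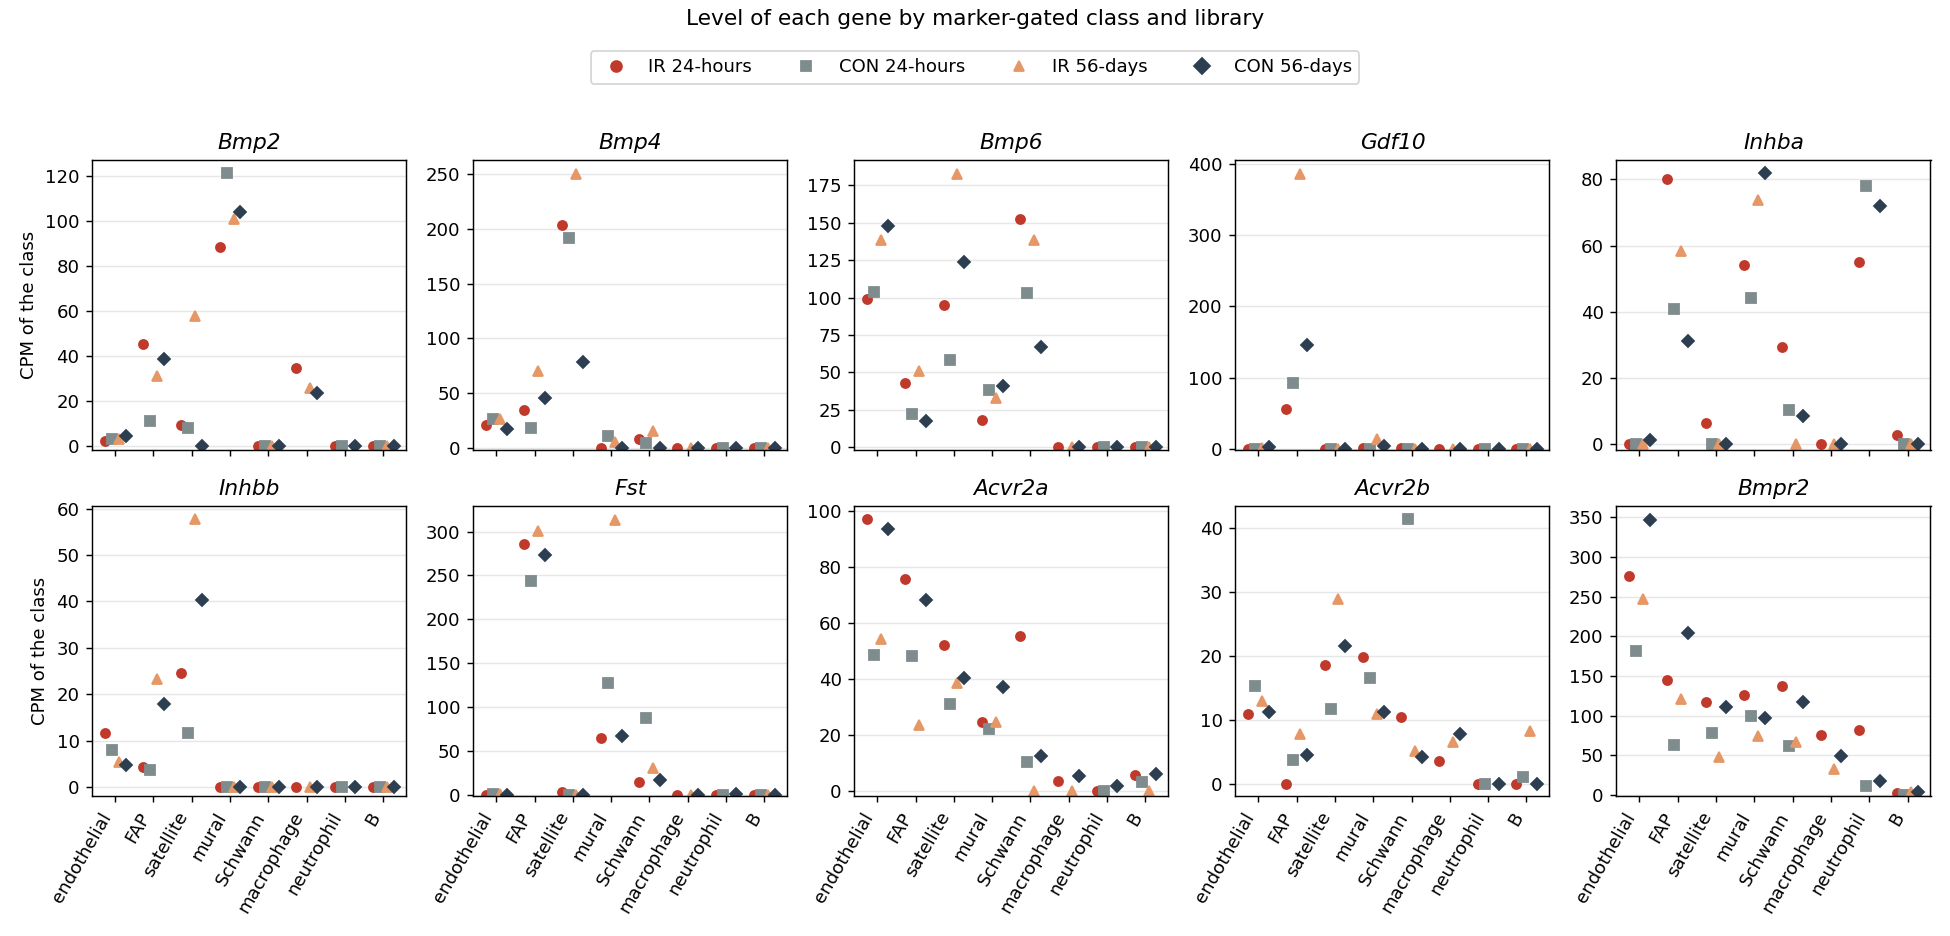
Level in CPM (vertical axis) of each gene in 8 marker-gated classes (horizontal axis); each symbol is 1 library, shown where the class has at least 25 cells in it. Bmp2 is highest in mural-like, Bmp4 in satellite-like and Gdf10 in FAP-like cells, while Bmpr2 is read in nearly all stromal classes with endothelial-like cells at the top.

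Endothelial-like cells, the class with most cells, gave 49.0% of all Bmp4 UMIs at a lower level. That level was 20.9 CPM in IR and 26.4 CPM in CON cells at 24 hours, and 26.4 CPM in IR and 17.8 CPM in CON cells at 56 days. The 24-hour fold was 0.79 (0.57 to 1.12) and the 56-day fold 1.49 (0.99 to 2.25), and both intervals contained 1. In FAP-like cells Bmp4 had 34.6 CPM in IR and 18.5 CPM in CON at 24 hours, and 70.2 CPM in IR and 46.1 CPM in CON at 56 days. The folds of 1.87 (0.66 to 6.54) and 1.52 (0.80 to 2.81) rest on 5 to 31 UMIs a library.

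Bmp2, a bone- and cartilage-inducing ligand (chr2:133552159-133562885, plus strand), was highest in mural-like cells. Levels there were 88.7 CPM in IR and 121 CPM in CON cells at 24 hours, and 101 CPM in IR and 104 CPM in CON cells at 56 days. The range over libraries did not overlap that of the next class, FAP-like cells, at 11.1 to 45.5 CPM. IR over CON in mural-like cells was 0.73 (0.44 to 1.26) at 24 hours and 0.97 (0.58 to 1.64) at 56 days. In FAP-like cells the 24-hour counts were 21 UMIs in IR and 3 UMIs in CON, a fold of 4.10 (1.22 to 21.5), and at 56 days the fold was 0.81 (0.32 to 1.84). Macrophage-like cells held Bmp2 too, with 34.6 CPM in IR at 24 hours and 25.8 CPM in IR and 23.4 CPM in CON at 56 days. Endothelial-like cells had low Bmp2 levels, 2.38 CPM in IR and 3.17 CPM in CON at 24 hours, a fold of 0.75 (0.27 to 2.39) on 14 and 6 UMIs.

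Gdf10, also called Bmp3b, a divergent BMP family ligand (chr14:33923587-33937983, plus strand), was read almost only from FAP-like cells, which gave 85.8% of its 289 UMIs, while endothelial-like cells held 9. Levels were 56.3 CPM in IR and 92.5 CPM in CON FAP-like cells at 24 hours, and 386 CPM in IR and 146 CPM in CON cells at 56 days. The IR library at 56 days stood far above the others. The fold was 0.61 (0.34 to 1.10) at 24 hours and 2.65 (1.98 to 3.54) at 56 days. A few cells carried these counts: 9 of 45 IR cells held 99 UMIs at 56 days, and 73.7% of them lay in 3 cells, while 20 of 101 CON cells held 98 UMIs. Without cells that carried 2 or more markers of another class the 56-day fold was 0.81, on 24 UMIs in IR and 78 UMIs in CON, so the higher IR level ended there. At 24 hours the 0.61-fold also turned, to 1.85-fold, when the top cell of each library was left out.

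The activin subunit genes differed in where they were read. Inhba encodes the beta A subunit of activin A (chr13:16011851-16031621, plus strand). Neutrophil-like cells gave 38.5% of its 465 UMIs, mural-like cells 19.4% and FAP-like cells 18.1%. Of the 179 neutrophil UMIs 127 came from the CON library at 56 days, which had 237 such cells. FAP-like cells led with 33.0% in IR at 24 hours, and mural-like cells with 35.5% in IR at 56 days. In neutrophil-like cells it had 54.9 CPM in IR and 78.1 CPM in CON at 24 hours and 72.0 CPM in CON at 56 days, where the IR library had 21 cells with 95.1 CPM. The 24-hour fold was 0.70 (0.18 to 2.00), on 4 UMIs in IR and 29 UMIs in CON. Neutrophil-like cells at 24 hours differed in median depth, at 1927 UMIs in IR and 5844.5 UMIs in CON. The class medians of neutrophil-like, mural-like and FAP-like cells, at 72.0, 63.9 and 49.6 CPM, had overlapping ranges. Endothelial-like cells held 3 Inhba UMIs in all.

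Inhba in FAP-like cells stood at 80.1 CPM in IR and 40.7 CPM in CON at 24 hours, and at 58.5 CPM in IR and 31.2 CPM in CON at 56 days. IR was higher at both times, by 1.97-fold (0.98 to 4.28) and 1.87-fold (0.90 to 3.81), and both intervals contained 1. In mural-like cells the folds were 1.23 (0.56 to 3.08) and 0.90 (0.49 to 1.66).

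Inhbb encodes the beta B subunit of activin B (chr1:119415465-119422248, minus strand) and was a low-count gene with 169 UMIs. Satellite-like cells had 24.6 CPM in IR and 11.7 CPM in CON at 24 hours, and 57.7 CPM in IR and 40.4 CPM in CON at 56 days. The 56-day fold was 1.43 (0.45 to 3.90), and in the CON library at 56 days satellite-like cells held 34.9% of Inhbb UMIs, against 30.2% in endothelial-like cells. Endothelial-like cells had 11.6 CPM in IR and 7.92 CPM in CON at 24 hours, and 5.48 CPM in IR and 4.81 CPM in CON at 56 days. The endothelial folds of 1.46 (0.83 to 2.75) and 1.14 (0.46 to 2.76) had intervals that contained 1. Mural-like cells held no Inhbb UMI in any library, which over the 145 IR cells at 24 hours allows a share of up to 2.07%, counted as 3 cells.

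Fst encodes follistatin, the secreted inhibitor of activins and myostatin (chr13:114452290-114458951, minus strand), and 62.3% of its 737 UMIs were in FAP-like cells. Levels there were 286 CPM in IR and 244 CPM in CON at 24 hours, and 300.2 CPM in IR and 273 CPM in CON at 56 days. These 4 levels lay close together, with folds of 1.17 (0.865 to 1.60) and 1.10 (0.83 to 1.44). In 3 of the 4 libraries 3 cells held most of them: 70 of 132 IR UMIs and 39 of 66 CON UMIs at 24 hours, and 70.1% of the IR UMIs at 56 days, against 37.5% of the CON UMIs at 56 days. Endothelial-like cells had 2 Fst UMIs over all libraries, and satellite-like cells had 1.

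Mural-like cells had 64.1 CPM of Fst in IR and 127 CPM in CON at 24 hours, and 314 CPM in IR and 67.0 CPM in CON at 56 days. IR was thus the lower library at 24 hours and by far the higher at 56 days, with folds of 0.51 (0.29 to 0.89) and 4.69 (2.84 to 8.19). Few cells held these UMIs, and the intervals do not cover that clustering. At 24 hours 6 IR and 3 CON cells held Fst, and 3 cells held 34 of 39 UMIs in IR and 23 of 23 in CON. At 56 days 17 IR and 9 CON cells held it, and 3 cells held 68 of 115 UMIs in IR and 12 of 18 in CON. In 3 of the 4 libraries the UMIs lay mostly in cells that also carried 2 or more FAP markers: 26 of 39 in IR and 23 of 23 in CON at 24 hours, and 79 of 115 in IR and 5 of 18 in CON at 56 days. The summed FAP markers stood at 559 CPM in IR and 557 CPM in CON mural-like cells at 24 hours, and at 584 CPM in IR and 435 CPM in CON at 56 days, against 23330 to 31773 CPM in FAP-like cells. Without cells carrying 2 or more markers of another class, IR over CON was 2.65 at 56 days, on 35 and 12 UMIs, and at 24 hours the counts were 13 UMIs in IR and 0 UMIs in CON, so the lower IR value ended. The mitochondrial share of UMIs in mural-like cells was 8.05% in IR and 6.13% in CON at 24 hours. At 56 days it was 5.28% in IR and 9.27% in CON. Beyond the processing alternatives its part in the Fst values was not tested. In Schwann-like cells Fst had 8 UMIs in IR and 17 UMIs in CON at 24 hours, a fold of 0.16 (0.059 to 0.39), and 14 of the 17 CON UMIs came from 3 cells.

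**Figure D2:**
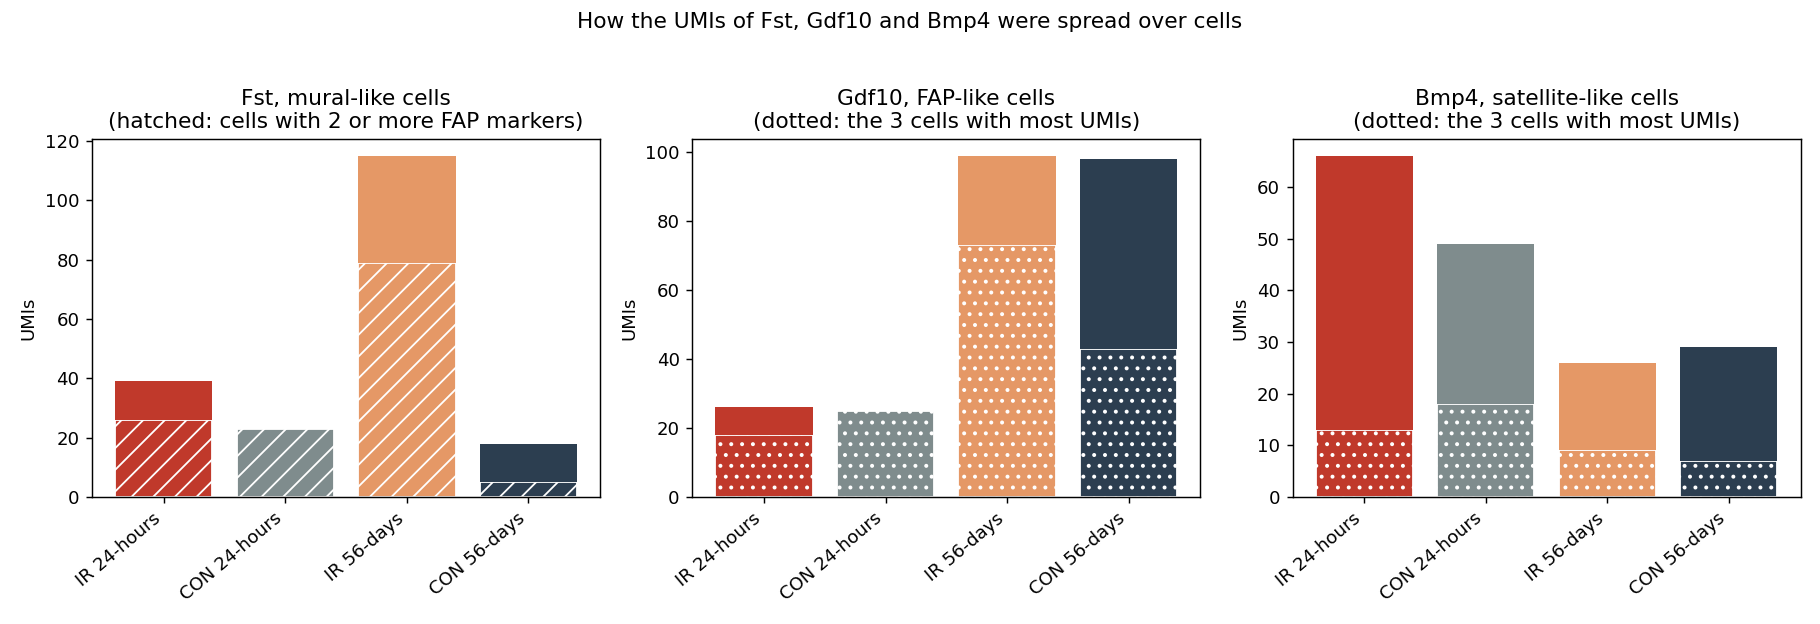
UMIs (vertical axis) of Fst in mural-like, Gdf10 in FAP-like and Bmp4 in satellite-like cells in each library (horizontal axis); hatching marks UMIs in cells with 2 or more FAP markers, dots the 3 cells with most UMIs. For Fst, 79 of the 115 IR UMIs at 56 days lie in cells with FAP markers, and for Gdf10, 73 of 99 lie in 3 cells, whereas Bmp4 is spread over more cells.

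The type II receptor genes Acvr2a and Bmpr2 were the members with counting intervals on opposite sides of 1 at the 2 times in endothelial-like cells. Acvr2a encodes an activin and BMP receptor (chr2:48814109-48903269, plus strand). It had 97.1 CPM in IR and 48.6 CPM in CON endothelial-like cells at 24 hours (571 and 92 UMIs), and 54.3 CPM in IR and 93.7 CPM in CON cells at 56 days (109 and 253 UMIs). IR at 24 hours and CON at 56 days were the high libraries, and CON at 24 hours and IR at 56 days the low ones. IR over CON was 2.00 (1.60 to 2.52) at 24 hours and 0.58 (0.46 to 0.73) at 56 days. The CON libraries themselves differed by 1.93-fold (1.51 to 2.47), CON at 56 days over CON at 24 hours. The shielded limbs thus differed between the times by about as much as the limbs did at 24 hours.

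The share of endothelial-like cells with an Acvr2a UMI followed the same order. It was 25.9% in IR and 15.1% in CON at 24 hours, and 17.6% in IR and 23.3% in CON at 56 days. After thinning to 1000 UMIs per cell it was 8.52% in IR and 4.01% in CON at 24 hours, and 4.21% in IR and 7.84% in CON at 56 days, leaving out 201, 53, 49 and 95 shallower cells. In B-like cells the unthinned share was 1.90% in IR and 1.24% in CON at 24 hours, and 0 of 62 cells in IR and 2.67% in CON at 56 days. At 24 hours the median depth of endothelial-like cells was 3155 UMIs in IR and 3540 UMIs in CON, and that of B-like cells 3261 UMIs in IR and 3147 UMIs in CON. At 56 days it was 3599 UMIs in IR and 3027 UMIs in CON endothelial-like cells, and 3051.5 UMIs in IR and 3239 UMIs in CON B-like cells.

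The 250 bases before the Acvr2a start are shown because the direction of this receptor gene turns between the times. They are RefSeq sequence of GRCm38.p6, chr2:48813859-48814108 on the plus strand, with GC boxes in capitals.
Acvr2a promoter: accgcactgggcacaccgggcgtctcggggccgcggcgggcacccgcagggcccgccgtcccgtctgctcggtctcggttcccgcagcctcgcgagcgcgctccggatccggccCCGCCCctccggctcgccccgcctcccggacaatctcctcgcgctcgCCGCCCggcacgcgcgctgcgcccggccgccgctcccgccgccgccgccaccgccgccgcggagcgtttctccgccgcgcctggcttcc
This window holds 2 GC boxes and 49 CG dinucleotides in 250 bases, with a GC content of 82.0%. Promoter windows were matched for 8 of the 10 members.

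Bmpr2, the BMP type II receptor (chr1:59763400-59879014, plus strand), had 4351 UMIs, 78.2% of them in endothelial-like cells. Its level there was 276 CPM in IR and 182 CPM in CON at 24 hours, and 247 CPM in IR and 347 CPM in CON at 56 days. The IR library was the higher at 24 hours and the lower at 56 days. The folds were 1.52 (1.35 to 1.71) and 0.71 (0.637 to 0.795), and CON at 56 days was 1.91 times CON at 24 hours (1.69 to 2.17).

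The same directions were read in other classes on fewer UMIs. Bmpr2 in FAP-like cells had 145 CPM in IR and 62.9 CPM in CON at 24 hours, and 121 CPM in IR and 204 CPM in CON at 56 days. Its folds there were 2.31 (1.34 to 4.19) and 0.59 (0.39 to 0.88). In Schwann-like cells the folds were 2.21 (1.19 to 4.45) and 0.57 (0.27 to 1.13), in satellite-like cells 1.50 (0.85 to 2.71) and 0.44 (0.13 to 1.10), and in mural-like cells 1.27 (0.76 to 2.26) and 0.76 (0.43 to 1.36). The intervals at both times lay clear of 1 in endothelial-like and FAP-like cells. Acvr2a in FAP-like cells had 35 UMIs in IR and 13 UMIs in CON at 24 hours, and 6 UMIs in IR and 46 UMIs in CON at 56 days, with folds of 1.58 (0.81 to 3.25) and 0.34 (0.12 to 0.80). In Schwann-like cells Acvr2a had 32 UMIs in IR and 2 UMIs in CON at 24 hours, a fold of 5.36 (1.37 to 46.2). In satellite-like cells it had 17 UMIs in IR and 8 UMIs in CON at 24 hours, a fold of 1.67 (0.68 to 4.48). Bmpr2 in macrophage-like cells at 56 days had 32.2 CPM in IR and 49.4 CPM in CON, a fold of 0.65 (0.27 to 1.47) on 10 and 19 UMIs, and its log2 ratio was 0.81 after thinning every cell to 1000 UMIs.

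**Figure D3:**
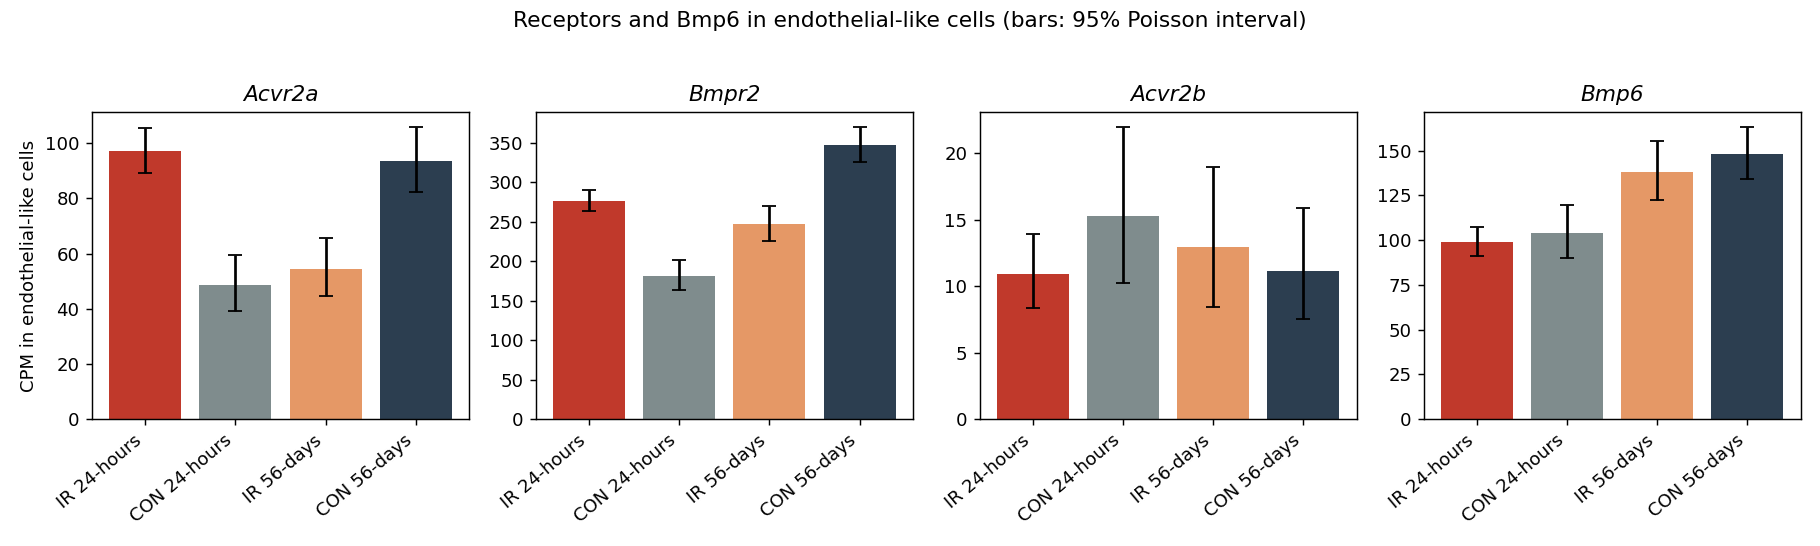
CPM (vertical axis) of Acvr2a, Bmpr2, Acvr2b and Bmp6 in endothelial-like cells of each library (horizontal axis), with 95% Poisson intervals as bars. Acvr2a and Bmpr2 are higher in IR at 24 hours and lower in IR at 56 days, while Acvr2b and Bmp6 have IR and CON intervals that overlap at both times.

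Other measures differed between IR and CON endothelial-like cells in opposite directions at the 2 times as well. The mitochondrial share of UMIs was 4.09% in IR and 3.28% in CON at 24 hours, and 2.96% in IR and 3.98% in CON at 56 days. The ribosomal protein share had the opposite directions, at 9.51% in IR and 11.3% in CON at 24 hours, and 10.9% in IR and 8.97% in CON at 56 days. The nuclear RNA Malat1 stood at 19948 CPM in IR and 11152 CPM in CON at 24 hours, and at 12671 CPM in IR and 13878 CPM in CON at 56 days. In FAP-like cells the mitochondrial share was likewise higher in IR at 24 hours, at 3.70% against 2.98% in CON, and lower in IR at 56 days, at 2.76% against 3.73% in CON. Satellite-like, mural-like, Schwann-like and B-like cells had these directions too, so they were not particular to a class. Schwann-like cells had 5.11% in IR and 4.02% in CON at 24 hours, and 3.62% in IR and 5.53% in CON at 56 days. B-like cells had 5.01% in IR and 3.45% in CON at 24 hours, and 2.86% in IR and 4.55% in CON at 56 days. The median depth of FAP-like cells had the same directions, at 6373 UMIs in IR and 4559 UMIs in CON at 24 hours, and 4612 UMIs in IR and 6567 UMIs in CON at 56 days. Among cells with 3 to 5% mitochondrial UMIs, a range chosen after the data were seen, endothelial Acvr2a was 2.79-fold at 24 hours, on 241 and 20 UMIs, and 0.42-fold at 56 days, on 18 and 85 UMIs. Bmpr2 was 1.27-fold and 0.85-fold in those cells, closer to 1 than over all endothelial-like cells. Totals without mitochondrial, ribosomal protein, haemoglobin and sarcomere UMIs left these endothelial folds and Bmpr2 in FAP-like cells on their sides. After thinning to 1000 UMIs, 17.2% of 58 IR and 8.57% of 35 CON FAP-like cells held a Bmpr2 UMI at 24 hours. At 56 days 7.32% of 41 IR and 13.8% of 94 CON cells did. Beyond these alternatives the part of the ribosomal protein share, of Malat1 and of the depth of FAP-like cells in these results was not tested.

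In endothelial-like cells 7.61% of 10234 genes measured at both times had an interval above 1 at 24 hours and below 1 at 56 days, and 4.98% had the reverse. In FAP-like cells the share with the order of Bmpr2 was 2.31% of 5284 genes and the reverse 1.70%. In mural-like cells the share with the order of Fst was 3.08% of 4670 genes and the reverse 1.82%.

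**Figure D4:**
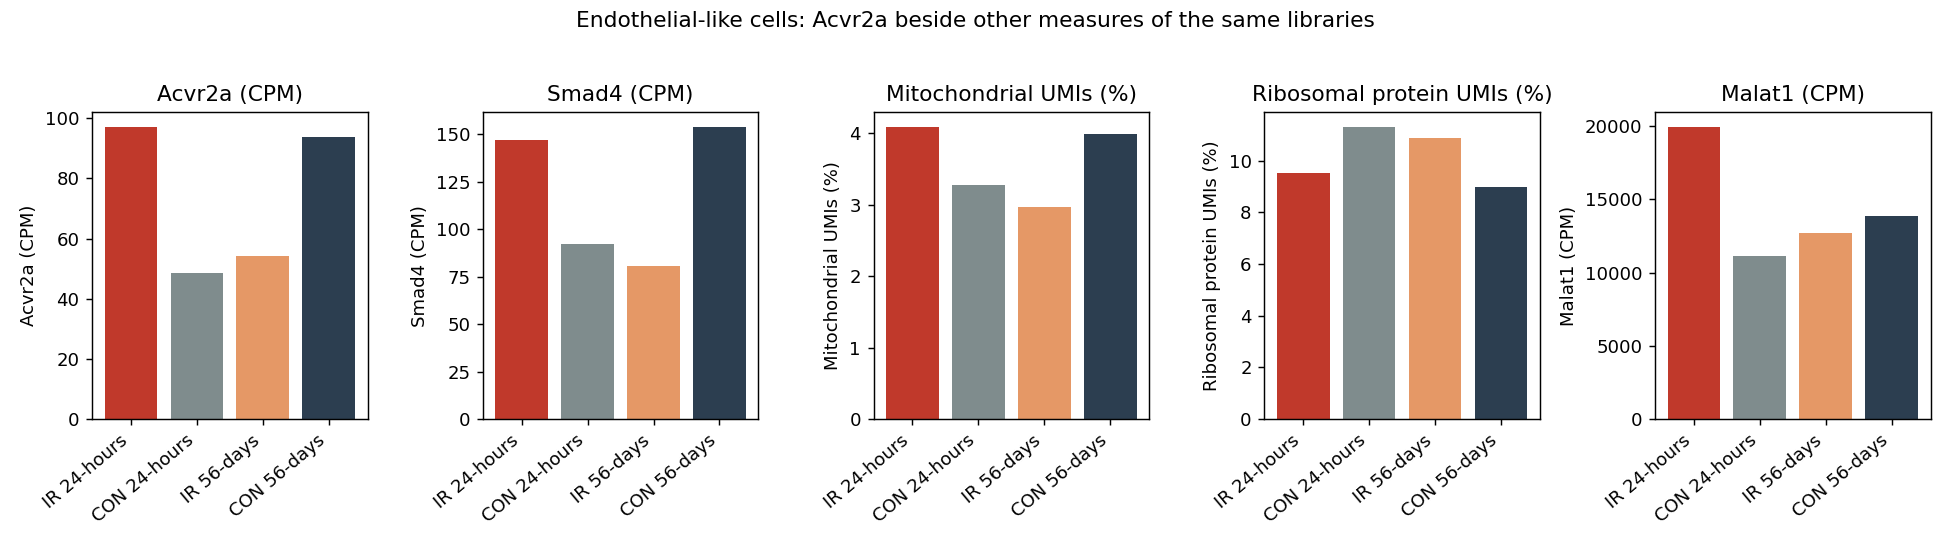
Endothelial-like cells of each library (horizontal axis): CPM of Acvr2a, Smad4 and Malat1 and the percent of UMIs from mitochondrial and ribosomal protein genes (vertical axes). Acvr2a, Smad4, mitochondrial share and Malat1 are higher in IR than in CON at 24 hours and lower in IR at 56 days, and the ribosomal protein share is the reverse.

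Acvr2b, the second activin type II receptor gene and a main myostatin receptor (chr9:119402118-119434995, plus strand), stayed low in every class. Endothelial-like cells had 10.9 CPM in IR and 15.3 CPM in CON at 24 hours, and 12.96 CPM in IR and 11.1 CPM in CON at 56 days. The folds of 0.71 (0.45 to 1.14) and 1.17 (0.66 to 2.04) had intervals that contained 1. Satellite-like cells had the highest class median, on 20 UMIs over all libraries, and mural-like and endothelial-like cells followed with overlapping ranges. The highest level in a single library was 41.3 CPM in CON Schwann-like cells at 24 hours, on 8 UMIs, where IR had 6 UMIs. In endothelial-like cells at 24 hours the Acvr2b interval lay below that of Bmpr2 (1.35 to 1.71). After thinning to 1000 UMIs the Acvr2b fold was 1.65 instead, on 21 UMIs in IR and 4 UMIs in CON. At 56 days the 2 intervals overlapped, so the counts do not show whether Acvr2b differed between limbs by as much as Bmpr2 did then.

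Over all kept cells 5 of the 10 members were at least 1.5-fold higher in IR at 24 hours, where 34.6% of 13951 measured genes were, and 0 were at least 1.5-fold lower, where 10.8% were. At 56 days 5 were higher, against 17.2% of 13687 genes, and 0 lower, against 12.9%. These sums mix classes whose shares differ between limbs: Bmpr2 was 2.82-fold (2.54 to 3.14) over all cells at 24 hours and 1.52-fold within endothelial-like cells, which were themselves more frequent in IR. The median log2 ratio over all cells was 0.63 for the members and 0.35 for all genes at 24 hours, and 0.53 for the members and 0.11 for all genes at 56 days.

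Within classes of at least 25 cells in both libraries, 28 pairs of member and class had at least 20 summed UMIs at 24 hours. Of these, 12 were at least 1.5-fold higher in IR, against 22.2% of all 48845 gene and class pairs, and 3 were lower, against 12.4%. The higher pairs were 6 in FAP-like cells, Acvr2a and Bmpr2 in endothelial-like and in Schwann-like cells, and Bmp6 and Acvr2a in satellite-like cells. The lower pairs were Gdf10 in FAP-like cells and Fst in mural-like and Schwann-like cells. At 56 days 26 pairs were measured. Of these, 7 were higher, against 14.8% of 38918 pairs, and 6 were lower, against 18.3%. All 6 lower pairs were receptors: Acvr2a in endothelial-like and FAP-like cells, and Bmpr2 in FAP-like, satellite-like, Schwann-like and macrophage-like cells. The Bmpr2 intervals in satellite-like, Schwann-like and macrophage-like cells contained 1. Acvr2b, the other receptor member, was 1.17-fold in endothelial-like cells, with an interval that contained 1. The higher pairs were ligands and Fst: Bmp4, Bmp6, Gdf10 and Inhba in FAP-like cells, Bmp4 in satellite-like cells, Bmp6 in Schwann-like cells and Fst in mural-like cells. Of these, the intervals of Bmp4 and Inhba in FAP-like cells contained 1.

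By class at 24 hours, endothelial-like cells had 2 of 7 measured members higher and 0 lower, where 16.8% and 6.34% of all genes were. FAP-like cells had 6 of 8 higher and 1 lower, against 21.9% and 10.5%. Satellite-like cells had 2 of 4 higher and 0 lower (25.3% and 12.2%), mural-like cells 0 of 4 higher and 1 lower (18.5% and 14.8%) and Schwann-like cells 2 of 4 higher and 1 lower (26.4% and 11.7%). Inhba, the single member measured in neutrophil-like cells, was in neither group, where 40.4% and 33.6% of genes were. At 56 days endothelial-like cells had 0 of 6 higher and 1 lower (13.0% and 13.0%), and FAP-like cells 4 of 8 higher and 2 lower (16.0% and 22.3%). Satellite-like cells had 1 of 4 higher and 1 lower (16.5% and 24.3%), mural-like cells 1 of 5 higher and 0 lower (18.2% and 14.5%) and Schwann-like cells 1 of 2 higher and 1 lower (15.3% and 17.2%). Macrophage-like cells had Bmpr2 alone, which was lower (10.9% of genes higher and 23.5% lower). With 1 to 8 members a class, shares of these sizes rest on few genes.

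The median log2 ratio of the 8 members measured in FAP-like cells was 0.85 at 24 hours, beside 0.08 for all 5503 genes, and 0.38 at 56 days, beside 0.00 for all 6564 genes. In endothelial-like cells it was -0.07 for 7 members at 24 hours, beside 0.07 for all genes, and 0.05 for 6 members at 56 days, beside 0.02. A scaling that divides by the median ratio of all genes would shift satellite-like values at 24 hours by the all-gene median of 0.12, neutrophil-like values by 0.23, macrophage-like values at 56 days by -0.13 and values over all cells at 24 hours by 0.35, on the log2 scale.

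**Figure D5:**
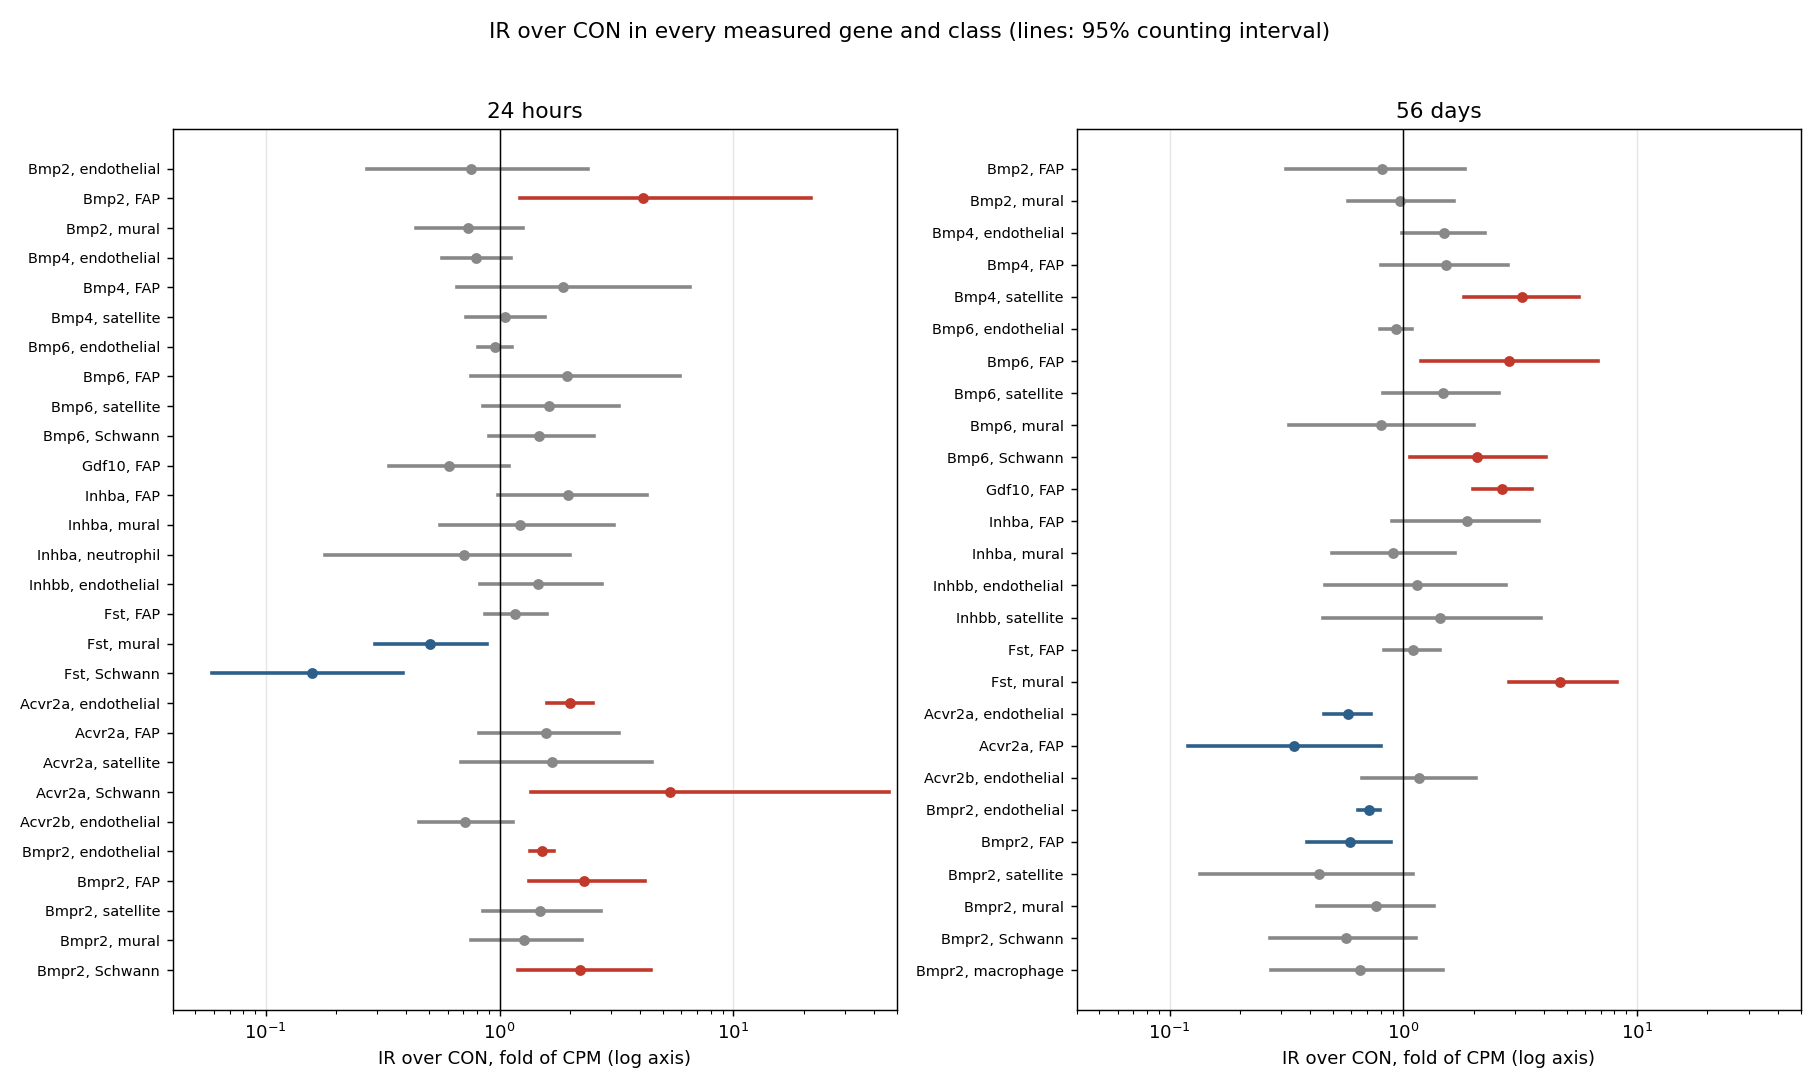
IR over CON fold of CPM (horizontal log axis) with its 95% counting interval for every measured member and class (vertical axis) at 24 hours and 56 days; red intervals lie above 1, blue below 1, grey contain 1. Acvr2a and Bmpr2 in endothelial-like cells lie above 1 at 24 hours and below 1 at 56 days, and Fst in mural-like cells the other way.

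Of 59 further genes of the pathway, 29 were measured in endothelial-like cells at 24 hours. Of these, 6 were at least 1.5-fold higher and 2 lower in IR, where 16.8% and 6.34% of all genes were, with a median log2 ratio of -0.07 beside 0.07 for all genes. At 56 days 27 were measured, with 2 higher and 2 lower, where 13.0% and 13.0% of all genes were, and a median of -0.02 beside 0.02. The 24-hour shares are near those of all genes, and the 56-day shares lie below them, on 2 genes in each direction. By list, the 24-hour calls were 2 of 3 ligands, 1 of 8 receptors and 3 of 10 SMADs and regulators higher, and 1 of 3 antagonists and 1 of 5 BMP targets lower. At 56 days they were 1 ligand and 1 of 10 SMADs and regulators higher, and 1 of 4 antagonists and 1 of 10 SMADs and regulators lower.

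The common mediator Smad4 had 147 CPM in IR and 92.4 CPM in CON endothelial-like cells at 24 hours, and 80.8 CPM in IR and 154 CPM in CON at 56 days. Its folds of 1.59 (1.35 to 1.89) and 0.52 (0.435 to 0.63) had the same directions as those of Acvr2a and Bmpr2. These directions of Smad4 were not particular to endothelial-like cells. Smad4 was 2.78-fold (1.55 to 5.32) and 0.56-fold (0.27 to 1.07) in satellite-like cells. In B-like cells, which held few receptor UMIs, it was 2.33-fold (1.46 to 3.71) and 0.66-fold (0.28 to 1.49). Mural-like and Schwann-like cells had the same directions, while FAP-like cells were 1.01-fold (0.65 to 1.60) at 24 hours. In endothelial-like cells Smad2, which carries activin signals, was 1.74-fold (1.32 to 2.33) at 24 hours and 0.92-fold (0.69 to 1.22) at 56 days. The inhibitory Smad6 was 0.78-fold (0.48 to 1.31) at 24 hours and 2.04-fold (1.27 to 3.32) at 56 days. The BMP target Atoh8 was 0.66-fold (0.46 to 0.95) at 24 hours and 0.70-fold (0.47 to 1.01) at 56 days. Of the other targets at 24 hours, Id3 was 0.75-fold (0.71 to 0.79), on 4062 and 1747 UMIs. Id1 was 0.89-fold (0.82 to 0.95), on 2671 and 972 UMIs. Intervals of Id2, at 0.90-fold (0.73 to 1.12), and Hey1, at 1.09-fold (0.91 to 1.30), contained 1. At 56 days 0 of 5 targets were 1.5-fold higher or lower.

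Satellite-like cells, where Bmp4 was highest, had 19 pathway genes measured at 24 hours, 7 higher and 3 lower, where 25.3% and 12.2% of all genes were, with a median log2 ratio of 0.43 beside 0.12 for all genes. At 56 days 18 were measured, 3 higher and 6 lower, where 16.5% and 24.3% of all genes were, with a median of -0.07 beside -0.02. Of the 4 BMP targets measured, 1 was higher and 1 lower at 24 hours, and 1 higher and 3 lower at 56 days. The higher one, Id3, stood at 1371 CPM in IR and 703 CPM in CON at 24 hours, and at 2809 CPM in IR and 1298 CPM in CON at 56 days. Its folds were 1.95 (1.64 to 2.33) and 2.16 (1.87 to 2.51). Its relative Id1 was 0.56-fold (0.36 to 0.86) at 24 hours and 0.61-fold (0.28 to 1.19) at 56 days, and Id2 was 1.49-fold (0.83 to 2.75) and 0.53-fold (0.20 to 1.18). Hey1 was 0.96-fold (0.49 to 1.90) at 24 hours and 0.49-fold (0.17 to 1.15) at 56 days. The TGF-beta co-receptor gene Tgfbr3 had 467 CPM in IR and 176 CPM in CON at 24 hours, a fold of 2.66 (1.90 to 3.80), and was 1.05-fold (0.74 to 1.46) at 56 days.

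Mural-like cells had 22 pathway genes measured at each time. At 24 hours 6 were higher and 4 lower, where 18.5% and 14.8% of all genes were, with a median log2 ratio of 0.23 beside -0.06 for all genes. At 56 days 8 were higher and 1 lower, where 18.2% and 14.5% of all genes were, with a median of 0.31 beside 0.06. Id2 had 35 UMIs in IR and 0 UMIs in CON at 24 hours, and 150.0 CPM in IR and 40.9 CPM in CON at 56 days, a fold of 3.67 (1.90 to 7.77). The inhibitory Smad7 was 4.47-fold (1.43 to 22.5) at 24 hours, on 45 and 3 UMIs, and 2.57-fold (1.14 to 6.52) at 56 days. The antagonist gene Nbl1 was 0.61-fold (0.47 to 0.81) at 24 hours and 1.05-fold (0.79 to 1.40) at 56 days. Smad4 was 2.35-fold (1.12 to 5.67) at 24 hours, on 63 and 8 UMIs, and 0.57-fold (0.36 to 0.91) at 56 days.

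Schwann-like cells had 19 pathway genes measured at 24 hours, 9 higher and 3 lower, where 26.4% and 11.7% of all genes were, with a median of 0.46 beside 0.07. At 56 days 13 were measured, 2 higher and 3 lower, where 15.3% and 17.2% of all genes were, with a median of 0.04 beside 0.01. Among the higher ones at 24 hours were Smad4 at 3.52-fold (1.84 to 7.55), the BMP antagonist gene Chrdl1 at 2.03-fold (1.24 to 3.49) and the type I receptor gene Acvr1 at 4.69-fold (1.18 to 40.6), on 28 and 2 UMIs. The BMP and Wnt antagonist gene Sostdc1 was 0.23-fold (0.16 to 0.34) at 24 hours, with 83.1 CPM in IR and 362 CPM in CON, and 2.10-fold (1.37 to 3.26) at 56 days. Smad4 and Chrdl1 were 0.81-fold (0.45 to 1.44) and 1.02-fold (0.58 to 1.78) at 56 days.

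FAP-like cells had 23 pathway genes measured at 24 hours, 5 higher and 1 lower, where 21.9% and 10.5% of all genes were, with a median of 0.08 beside 0.08. At 56 days 30 were measured, 4 higher and 3 lower, where 16.0% and 22.3% of all genes were, with a median of -0.07 beside 0.00. The ubiquitin ligase gene Smurf2 was 2.98-fold (1.54 to 6.31) at 24 hours and 0.85-fold (0.51 to 1.38) at 56 days. Acvr1 was 3.90-fold (1.16 to 20.5) at 24 hours, on 20 and 3 UMIs, and 1.75-fold (0.77 to 3.84) at 56 days. The BMP antagonist gene Nbl1 had 489 CPM in IR and 833 CPM in CON at 24 hours, a fold of 0.59 (0.49 to 0.71), and was 0.85-fold (0.69 to 1.03) at 56 days. Chrdl1 was 0.71-fold (0.37 to 1.38) at 24 hours and 1.92-fold (1.16 to 3.15) at 56 days. Of the 4 further ligands measured in FAP-like cells at 56 days, 0 were higher and 2 lower, unlike most member ligands there. The lower ones were Bmp5 at 0.28-fold (0.055 to 0.91), on 3 and 28 UMIs, and Bmp3 at 0.61-fold (0.32 to 1.11). The BMP target Id1 was also lower at 56 days, at 0.37-fold (0.072 to 1.26).

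The genes most like each member were ranked over 39 class and library levels among 12222 genes, by Pearson's r of log2(CPM + 10). The points share libraries, depth and class gates, so these values are a description. Gdf10 was most like Il33, with r of 0.967, followed by Smpd3 and Dpep1. Bmp6 was most like Ptpn14 (0.937), Bmp4 most like Tshz3 (0.931), Fst most like Mrgprf (0.929) and Bmpr2 most like App (0.913). Acvr2a led with Ppfibp1 (0.896) and Bmp2 with Arhgap6 (0.891). Inhbb had Pde10a first (0.904) and Bmp4 next (0.889), while Inhba with Snai1 (0.852) and Acvr2b with Ddit4 (0.773) had the weakest closest matches.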

How the data were processed

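The deposited counts are UMI counts per gene and barcode. The authors made them with Cell Ranger 5.0.0 on mm10, as the submitters' processing notes state. Other upstream settings are not given in the sources used here. The counts were used as deposited. A barcode was kept if it had 200 genes or more, 500 UMIs or more and no more than 20% mitochondrial UMIs. Too few genes removed 331 barcodes and too high a mitochondrial share 361, some for both reasons.

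A barcode with at least 10% of UMIs from 8 myofibre markers was set apart as myofibre-rich. Any other needed at least 3 markers of a class and a lead of 2 over every other class. No doublet caller was run and ambient RNA was not removed. Classes rest on RNA markers alone.

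UMIs were summed by class and library and scaled to CPM. Levels carry exact Poisson, folds exact conditional binomial and shares exact (Clopper-Pearson) binomial intervals at 95%, and where no cell held a UMI the limit given is 3 cells over the number of cells. The intervals hold no variation between animals. A prior count of 0.5 was added for log2 ratios. A gene was measured at 20 summed UMIs in classes of at least 25 cells in both libraries, and counted as higher or lower at 1.5-fold. No test was made, as each group has 1 library, and p-values were not computed. The interval code was checked on simulated data.

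The rule for named genes took all 10 members in the classes described, and values are printed for each member and class with enough UMIs to be measured. Of the pathway lists, up to 3 genes furthest higher and 3 furthest lower by the interval bound nearest 1 were eligible, and some are named. The Id genes and Hey1 in endothelial-like cells are given outside this rule, beside Atoh8. List counts are printed for the classes in which a member was measured, other than neutrophil-like cells. The members and lists were chosen with earlier results of these data known. Coordinates are from GENCODE vM21 (GRCm38) and promoters from RefSeq (GRCm38.p6), where windows that overlap an annotated exon are not printed. Python 3.11.15, numpy 2.4.6, scipy 1.17.1, pandas 2.3.3 and matplotlib 3.10.9 were used.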

Additional observations from a re-analysis of the deposited data

Results flagged for a closer look

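These results had counting intervals on opposite sides of 1 at the 2 times, and the difference between the times was not tested. IR over CON of Acvr2a in endothelial-like cells was 2.00 at 24 hours and 0.58 at 56 days. Bmpr2 in the same cells was 1.52 at 24 hours and 0.71 at 56 days, and Bmpr2 in FAP-like cells was 2.31 and 0.59. Fst in mural-like cells ran the other way, at 0.51 at 24 hours and 4.69 at 56 days, and most of its UMIs lay in cells with FAP markers in every library but CON at 56 days. The 24-hour Fst value rests on 6 IR and 3 CON cells with a UMI. The 24-hour and 56-day libraries come from separate pools of limbs, so time, age and library cannot be told apart.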

How the results depend on the processing

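No paired analysis was possible because each group has 1 library and the values come from no test. Across 74 folds and 13 alternatives, 873 of 960 values stayed within their main counting interval and 73 moved beyond it. The remaining 14 were folds past 1.5 that changed side, counted apart whether or not they lay within the interval. Folds not past 1.5 changed side too, 34 times within their interval and 15 times beyond it. Of these 15, within classes, thinning to 1000 UMIs gave a log2 ratio of -0.57 for Bmp4 in endothelial-like cells at 56 days, 0.59 for Acvr2b in endothelial-like cells and -0.96 for Bmpr2 in mural-like cells at 24 hours. Without the top cell Fst in FAP-like cells was -0.49 at 56 days, and among cells with 3 to 5% mitochondrial UMIs Inhba in mural-like cells at 56 days had 8 UMIs in IR and 0 UMIs in CON. The other 10 were folds over all cells. The folds of Acvr2a and Bmpr2 in endothelial-like cells kept their side under all 13 alternatives at both times.

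The 14 values past 1.5-fold that changed side, on the log2 scale, were as follows, and the cause was not tested. For Gdf10 in FAP-like cells the 24-hour value was 1.17 without the 5% of cells with most UMIs, 1.39 after thinning to 1000 UMIs and 0.81 without the top cell, and the 56-day value was -0.29 without cells carrying 2 or more markers of another class, with -0.53 over all cells. Under that last setting Fst in mural-like cells was 2.73 at 24 hours, a value set by the prior count since CON had 0 UMIs. Bmp4 in FAP-like cells was -0.0657 at 24 hours with the looser gate. Among cells with 3 to 5% mitochondrial UMIs, an alternative added after the data were seen, Acvr2a in FAP-like cells was -0.22 at 24 hours, and at 56 days Bmp6 was -0.00446 and Inhba -0.12 in FAP-like cells and Bmpr2 was 0.43 in macrophage-like cells. Bmp6 in FAP-like cells was -0.0419 at 56 days without the 5% of cells with most UMIs. Thinning gave 0.81 for Bmpr2 in macrophage-like cells and -0.37 for Bmp2 over all cells at 56 days.

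Counts of pairs at least 1.5-fold apart moved with the number of UMIs required. The 12 higher pairs at 24 hours became 2 after thinning, 1 in cells with 3 to 5% mitochondrial UMIs, 4 at 50 summed UMIs, 26 at 1 UMI and 4 at a fold of 2. The 3 lower pairs became 5 with the stricter gate, 1 after thinning, 0 in the mitochondrial range, 5 at 10 summed UMIs, 11 at 1 UMI and 1 at a fold of 2. At 56 days the 7 higher pairs became 3 after thinning, 4 without the top cell, 1 in the mitochondrial range, 3 at 50 UMIs and 16 at 1 UMI. The 6 lower pairs became 2 after thinning, 1 in the mitochondrial range, 3 at 50 UMIs, 14 at 1 UMI and 2 at a fold of 2. Thinning and the mitochondrial range leave 5 to 7 pairs measured, against 28 and 26. Low UMI totals limit every class.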

Other observations

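Tenocyte-like cells were too few for a comparison, with 10 cells in IR and 3 in CON at 24 hours and 10 in IR and 26 in CON at 56 days, but gave 11.4% of all Inhba UMIs. Their Inhba level was 48.1 CPM in IR at 24 hours, 145 CPM in IR and 211 CPM in CON at 56 days, and all 16 UMIs of the CON library at 24 hours came from 1 cell. Nearly all of these cells also carried 2 or more markers of another class: 10 of 10 in IR and 3 of 3 in CON at 24 hours, and 10 of 10 in IR and 24 of 26 in CON at 56 days. At 56 days 4 of 10 IR and 13 of 26 CON tenocyte-like cells held an Inhba UMI. Macrophage-like cells had 7 pathway genes measured at 56 days, 2 higher and 3 lower in IR, where 10.9% and 23.5% of all genes were, with a median log2 ratio of -0.25 beside -0.13 for all genes. The BMP target Id2 had 148 CPM in IR and 31.2 CPM in CON, a fold of 4.75 (2.48 to 9.86), and the type I receptor gene Acvrl1 was 3.19-fold (1.27 to 9.03), on 18 UMIs in IR and 7 UMIs in CON. Lower in IR were the SMAD repressor gene Ski, 0.45-fold (0.21 to 0.90), the common mediator Smad4, 0.52-fold (0.25 to 1.02), and the activin mediator Smad2, 0.53-fold (0.21 to 1.21).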
